A study of Mus musculus with 12 samples.

Results

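The MYC and MAX network factors are the 9 genes Myc, Mycn, Max, Mxd1, Mxd3, Mxd4, Mxi1, Mnt and Mga. They were taken by symbol from the 24062 rows of an RNA-Seq count table. No measured value entered that rule, but the genes were chosen with earlier results of these data known. The table holds 12 libraries of mouse embryonic fibroblasts (MEFs), 3 for each of 4 conditions. shRenilla MEFs express a control shRNA against Renilla luciferase, and shBruce MEFs express shBruce#1, which targets Birc6. This gene encodes BRUCE, a giant ubiquitin-conjugating enzyme of the inhibitor of apoptosis family. Each line was grown in full medium (FM) or was starved for 2 h in medium without serum and amino acids (Starv). There was 1 line per shRNA, so the knockdown and any other difference between the lines cannot be told apart. Serum and amino acids were withdrawn together, and any other difference between the media cannot be told apart from their loss. Nothing in the labels says that replicates came from separate cultures, so the spread between them may be technical.

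MYC and MYCN are transcription factors that bind DNA only as heterodimers with MAX, mainly at E-boxes, and activate genes of ribosome production, metabolism and cell division. MXD1, MXI1, MXD3, MXD4 and MNT compete with MYC for MAX and repress the same kind of site by recruiting SIN3 histone deacetylase complexes, while MGA, a very large protein with a second DNA-binding domain, pairs with MAX in a polycomb repressor complex. In fibroblasts, serum is a classical inducer of Myc, whose mRNA and protein are both short-lived, and MXD proteins are best known from cells that leave the cell cycle or differentiate.

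Of the 9 genes, 8 passed edgeR's filter on low counts and Mycn did not. On starvation, the repressive partners Mnt, Mxi1, Mxd1 and Mxd4 rose in shRenilla and in shBruce MEFs, Mnt the most of the 8, by 3.35-fold and 4.19-fold. Myc was 1.65-fold and 2.17-fold lower, a decrease that passed the test in shBruce but not in shRenilla MEFs. Fitted on each line's libraries alone, the decrease of Myc passed in shRenilla (adjusted p = 5.05e-05) but not in shBruce MEFs (adjusted p = 0.0796). The difference between the lines in the starvation effect did not pass. Between the lines, 0 of the 8 genes and 0% of all genes passed in FM. In Starv, Mxd3 alone of the 8 passed, where 23.9% of all genes did, and its call held in 13 of 22 alternatives.

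The 4 genes that rose in both lines differ in what lies just before their start. RefSeq's promoter table for GRCm38.p6 had entries for 8 of the 9 genes, Myc being the one without. The 250 bases before the start are given here for Mnt, Mxd4, Mxd1 and, at the first of its 3 listed starts, Mxi1, each 5′ to 3′ on the gene's strand. Capitals mark the canonical E-box CACGTG, the site bound by MAX dimers. It reads the same on both strands.
Mnt, chr11:74830674-74830923, plus strand: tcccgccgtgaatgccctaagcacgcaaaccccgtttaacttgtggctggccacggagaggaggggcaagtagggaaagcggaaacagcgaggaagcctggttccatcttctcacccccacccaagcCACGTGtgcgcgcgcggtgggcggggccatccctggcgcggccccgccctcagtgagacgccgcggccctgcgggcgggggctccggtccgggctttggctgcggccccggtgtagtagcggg
Mxd4, chr5:34187711-34187960, minus strand: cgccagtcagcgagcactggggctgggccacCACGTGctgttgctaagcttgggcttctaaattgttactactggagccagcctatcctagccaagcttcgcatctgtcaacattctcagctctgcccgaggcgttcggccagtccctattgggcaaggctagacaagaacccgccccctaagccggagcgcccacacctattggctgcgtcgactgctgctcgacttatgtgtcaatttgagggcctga
Mxd1, chr6:86669160-86669409, minus strand: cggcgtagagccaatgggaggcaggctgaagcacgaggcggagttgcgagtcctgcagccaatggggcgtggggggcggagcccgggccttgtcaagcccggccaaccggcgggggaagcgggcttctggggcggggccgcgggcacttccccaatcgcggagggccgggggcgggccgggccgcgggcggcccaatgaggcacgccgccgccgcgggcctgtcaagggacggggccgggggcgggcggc
Mxi1, chr19:53310256-53310505, plus strand: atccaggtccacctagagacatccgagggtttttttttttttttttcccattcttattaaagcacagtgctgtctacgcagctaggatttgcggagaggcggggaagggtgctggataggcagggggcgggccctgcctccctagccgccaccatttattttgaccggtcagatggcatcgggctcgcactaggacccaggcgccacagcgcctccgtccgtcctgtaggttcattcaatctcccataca

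CACGTG occurred 123 bases before the start of Mnt and 219 bases before that of Mxd4, and in none of the windows of the other 6 genes. Of all 32851 promoters of the same length, 6.02% hold it. The variant E-box CACGCG, searched on both strands, lay 21 bases before the start of Mga, on the opposite strand, and is in 7.62% of all promoters. The forkhead motif GTAAACA was found 231 bases before the third listed start of Mxi1 (3.17% of all promoters). The AP-1 motif TGANTCA (6.75%) and the ATF4-CEBP motif TGATGCAA (0.791%), read on both strands, were in none of these windows. A match of letters does not show that a factor binds there.

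Total counts per library ranged from 7717265 to 18510540, with the lowest in shBruce Starv replicate 1. The targeted gene Birc6 had normalized counts of 4682, 3273 and 5061 in shRenilla FM, 4759, 4712 and 2787 in shRenilla Starv, 1207, 1265 and 1390 in shBruce FM, and 1175, 703 and 1226 in shBruce Starv. Every shBruce library lay below every shRenilla library, with edgeR log2 fold changes of -1.75 in FM (adjusted p = 0.0627) and -1.98 in Starv (adjusted p = 0.0186). A normalized count is the raw count scaled to a common library size after TMM normalization. Of 9 fibroblast markers, 8 had mean normalized counts over 100, and the sum of all 9, with Vim the highest, ranged from 130223 to 198524. The exception, Thy1, was close to undetected, with means of 0.816 in shRenilla FM, 0.635 in shRenilla Starv, 0 in shBruce FM and 0.310 in shBruce Starv. The summed markers of 6 other cell types were low in every library, from 71.4 to 142 for blood, led by Cd68, and at most 64.0 for the others. The highest sums of the epithelial (16.1), muscle (30.3) and neural (20.2) markers were all in shBruce Starv replicate 1. The lowest sums in the same condition were 3.72, 9.29 and 0. The part of these markers in the results below was not tested.

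The Myc gene, on chromosome 15 (61985391 to 61990374, plus strand, GRCm38), has 3 exons in its principal transcript. Its normalized counts in shRenilla MEFs were 2838, 3055 and 2986 in FM and 1725, 1783 and 1861 in Starv. The media did not overlap, and the replicates stayed close together, with coefficients of variation of 3.75% and 3.81%. In shBruce MEFs the counts were 2923, 2994 and 1785 in FM and 674, 1008 and 1842 in Starv. Here FM replicate 3 was at the level of the starved shRenilla libraries, Starv replicate 3 lay just above it, and the coefficients of variation were 26.4% and 51.2%. In such bulk libraries, fewer cells with a transcript and less of it per cell cannot be told apart.

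For shRenilla MEFs, the log2 fold change of Myc was -0.73 with a standard error of 0.28 and a 95% confidence interval of -1.33 to -0.12, which did not pass (adjusted p = 0.0941). The joint fit gives Myc 1 spread for all 4 conditions. Fitted on the 6 shRenilla libraries alone, the same change passed (log2 fold change -0.71, adjusted p = 5.05e-05), and it also passed without shBruce Starv replicate 1 (adjusted p = 0.0275) or replicate 3 (adjusted p = 0.0111). For shBruce MEFs, the log2 fold change was -1.12 (standard error 0.28, 95% confidence interval -1.73 to -0.51, adjusted p = 0.0128). That call was lost on the 6 shBruce libraries alone (adjusted p = 0.0796) and without shBruce FM replicate 1 (adjusted p = 0.0510) or replicate 2 (adjusted p = 0.0550). The exact permutation p was 0.1 in shRenilla MEFs, the smallest that 3 libraries against 3 allow, and 0.2 in shBruce MEFs.

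Mycn, the paralog of Myc that is best known from embryonic and neural tissue, was close to undetected. Its raw counts were 1, 2 and 2 in shRenilla FM, 1 in each shRenilla Starv library, 0, 2 and 2 in shBruce FM, and 4, 1 and 1 in shBruce Starv. No fold change is given for it.

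Max encodes the shared partner of all the other factors and lies on chromosome 12 from 76937269 to 76962201. Its normalized counts were 1455, 1497 and 1376 in shRenilla FM and 1037, 1101 and 1106 in shRenilla Starv. In shBruce MEFs they were 1563, 1497 and 1529 in FM and 1145, 1326 and 1338 in Starv. The media did not overlap in either line. The decrease passed in shRenilla MEFs (log2 fold change -0.42, standard error 0.10, adjusted p = 0.0142), but not without shRenilla FM replicate 1 (adjusted p = 0.0577) or replicate 2 (0.0619), or without shRenilla Starv replicate 1 (0.0782) or replicate 2 (0.0536). In shBruce MEFs the log2 fold change of -0.27 did not pass (adjusted p = 0.0785), and it did so without shBruce Starv replicate 3 (adjusted p = 0.0421), with DESeq2 (adjusted p = 0.0188) and once the dependence of each library on transcript length and GC content was taken out (length and GC trends removed, adjusted p = 0.0138).

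**Figure D1:**
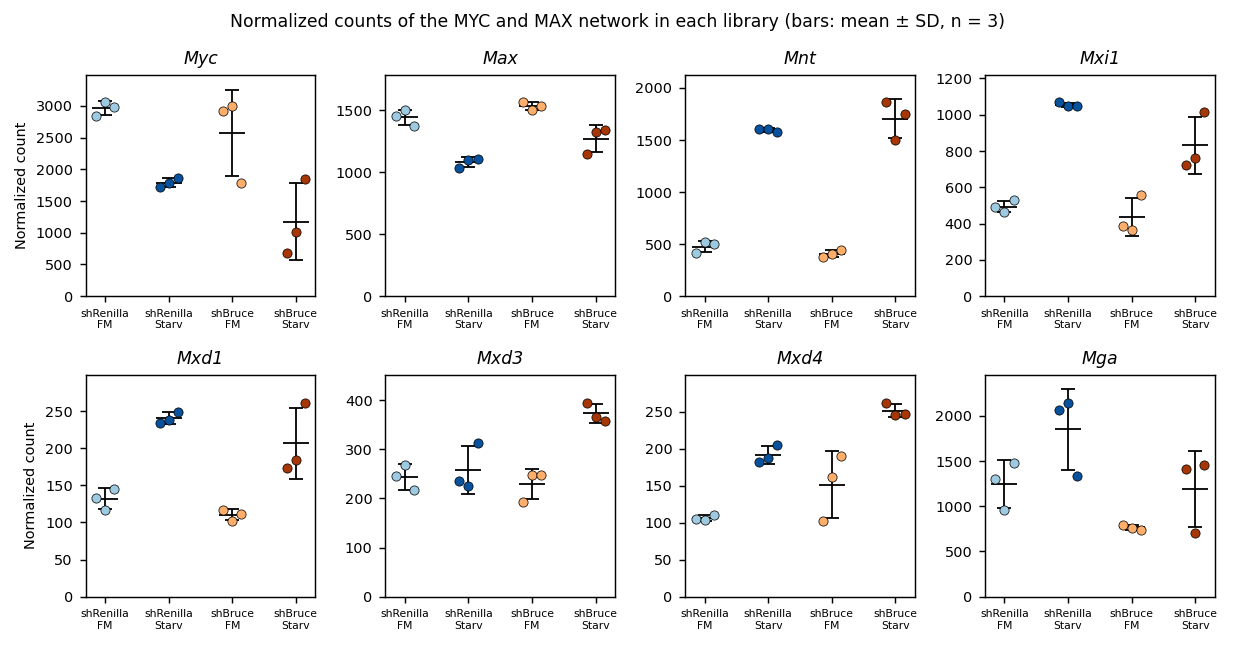
Normalized counts (vertical axes, from 0, scaled for each gene) of the 8 genes that passed the filter in each library, by line and medium. Points are single libraries and bars give the mean ± SD of 3 libraries. Mnt lies between 377 and 517 in all FM libraries and between 1502 and 1863 in all Starv libraries, whereas Myc in shBruce Starv spreads from 674 to 1842.

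Among the repressive partners, Mnt, which is expressed in most proliferating cells, changed most. Its normalized counts were 412, 517 and 500 in shRenilla FM and 1610, 1602 and 1576 in shRenilla Starv. In shBruce MEFs they rose from 377, 401 and 443 in FM to 1863, 1502 and 1753 in Starv. All 6 starved libraries thus lay far above all 6 FM libraries. The log2 fold changes were 1.74 in shRenilla MEFs (95% confidence interval 1.47 to 2.02, adjusted p = 1.95e-06) and 2.07 in shBruce MEFs (1.78 to 2.35, adjusted p = 4.17e-07), both with a standard error of 0.13. By p-value Mnt had rank 27 in shRenilla MEFs and rank 19 in shBruce MEFs among the 12154 genes tested.

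Mxi1, the MXD family member with the highest level per transcript length here, went from 490, 464 and 528 normalized counts in shRenilla FM to 1069, 1051 and 1046 in Starv, a 2.14-fold rise (log2 fold change 1.10, standard error 0.17, adjusted p = 0.000792). In shBruce MEFs the counts were 385, 364 and 559 in FM and 721, 763 and 1012 in Starv, a 1.91-fold rise (log2 fold change 0.93, adjusted p = 0.00204). The media did not overlap in either line, and replicate 3 was the highest shBruce library in both media.

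Mxd1, best known from differentiating blood cells, had 133, 117 and 145 normalized counts in shRenilla FM and 234, 239 and 249 in Starv. The shBruce values were 117, 103 and 112 in FM and 174, 185 and 262 in Starv. Log2 fold changes were 0.87 (adjusted p = 0.00314) and 0.91 (adjusted p = 0.00217). Mnt, Mxi1 and Mxd1 passed in both lines in all 22 alternative analyses of their fold change.

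Mxd4 had 104, 104 and 110 normalized counts in shRenilla FM and 182, 187 and 206 in Starv (log2 fold change 0.85, adjusted p = 0.00801). In shBruce MEFs it had 102, 162 and 190 in FM and 262, 245 and 247 in Starv (log2 fold change 0.73, adjusted p = 0.0142). The FM values of shBruce MEFs were spread out, with a coefficient of variation of 29.8%, but did not reach the starved ones. The shBruce call was lost when the 6 shBruce libraries were fitted alone (adjusted p = 0.104). Mxd4 shares exonic bases with Gm42846 and Mxi1 with Gm10197, each on the opposite strand and not in the count table, and the strand setting of the counting is not given in the sources used here.

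Mxd3, the MXD factor usually found in dividing cells, followed another pattern. In shRenilla MEFs its normalized counts of 245, 269 and 218 in FM and 235, 226 and 314 in Starv overlapped (log2 fold change 0.08, adjusted p = 0.756). In shBruce MEFs they rose from 193, 247 and 247 to 396, 366 and 359 (log2 fold change 0.70, standard error 0.16, adjusted p = 0.00725), and passed in all 22 alternatives. The starvation effects of the lines differed by 0.62 on the log2 scale (95% confidence interval 0.13 to 1.11, unadjusted p = 0.0168), which did not pass over all genes (adjusted p = 0.806). Of the 2369 exonic bases of Mxd3, 105 overlap Prelid1 on the opposite strand, so reads there may be shared. Prelid1 itself had starvation log2 fold changes of -0.26 in shRenilla and -0.45 in shBruce MEFs, and its part in the counts of Mxd3 was not tested.

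Mga, the largest of these genes with 24 exons and a principal transcript of 13931 bases, varied strongly between replicates. Its normalized counts were 1306, 954 and 1475 in shRenilla FM, 2068, 2147 and 1338 in shRenilla Starv, 796, 763 and 735 in shBruce FM, and 1417, 708 and 1455 in shBruce Starv. The media overlapped in both lines. shRenilla FM replicate 2, shRenilla Starv replicate 3 and shBruce Starv replicate 2 were the lowest of their conditions both for Mga and for Birc6, whose transcript has 15768 bases. In shBruce FM, the library lowest for Mga was the highest for Birc6. The log2 fold changes on starvation, 0.57 (standard error 0.25, adjusted p = 0.142) and 0.64 (standard error 0.26, adjusted p = 0.0908), did not pass. With the length and GC trends removed, they were 0.39 (adjusted p = 0.0480, or 0.0635 with the replicate number as a block as well) and 0.64 (adjusted p = 0.00362). The value in shRenilla MEFs also passed on the 6 shRenilla libraries alone (adjusted p = 0.0326), and that in shBruce MEFs with upper-quartile normalization (adjusted p = 0.0494). The latter passed too without shBruce Starv replicate 2 (log2 fold change 0.91, adjusted p = 0.00955).

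In all, 5 of the 8 genes passed on starvation in shRenilla MEFs, 4 higher and 1 lower, where 17.0% of all genes tested passed (9.69% higher and 7.27% lower). In shBruce MEFs 6 of 8 passed, 5 higher and 1 lower, against 23.0% of all genes (12.4% higher and 10.6% lower). The starvation comparisons share no libraries, but they share the estimate of the spread. With a change of at least 2-fold required as well, Mnt and Mxi1 passed in shRenilla MEFs, and Mnt and Myc in shBruce MEFs. The shares of all genes given above do not apply to this stricter condition, for which none is given here. The difference of the starvation effects between the lines passed for 0 of the 8 genes in edgeR and for 0% of all genes, with 474 of the 12154 genes at an unadjusted p under 0.05, and for 0 of the 8 also with DESeq2 and limma-voom. Only Mxd3 among the 8 had an unadjusted p under 0.05 there. For Myc that difference was -0.39 on the log2 scale (95% confidence interval -1.25 to 0.46) and for Mnt 0.32 (-0.06 to 0.71). That of Myc was -0.88 when shBruce Starv replicate 3 was left out and -0.15 when replicate 1 was, and passed in neither case.

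**Figure D2:**
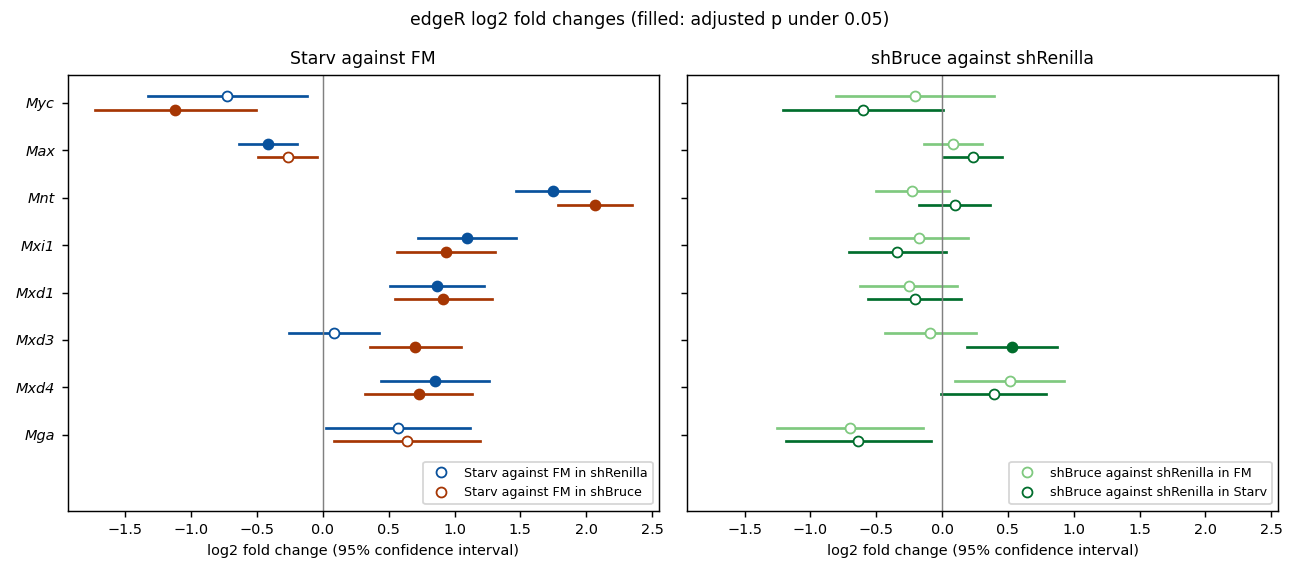
Log2 fold changes (horizontal axis) of the 8 genes from edgeR's joint fit, with 95% confidence intervals as lines, for Starv against FM in each line (left) and for shBruce against shRenilla MEFs in each medium (right). Filled points have an adjusted p under 0.05. Mnt, Mxi1, Mxd1 and Mxd4 lie to the right of 0 in both lines on starvation, and Mxd3 in Starv, at 0.53, is the single filled point between the lines.

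To compare levels between genes, normalized counts were divided by the length of the principal transcript in kb. In shRenilla FM, Myc had the highest level at 1266 ± 47.5 per kb (SD, n = 3), followed by Max at 743. Mxi1 (211) and Mxd3 (184), Mnt (104) and Mga (89.4), and Mxd1 (28.2) and Mxd4 (27.4) formed pairs whose replicates overlapped. In shRenilla Starv the order was Myc at 765 per kb, Max at 557, Mxi1 at 451, Mnt at 348, Mxd3 at 195 and Mga at 133, none of which overlapped the next. Mxd1 (51.6) and Mxd4 (49.5) again overlapped.

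The order in shBruce FM was led by Myc (1098 per kb) and Max (788), which overlapped through replicate 3, then Mxi1 (186) and Mxd3 (173), which overlapped too, Mnt (88.7), Mga (54.9), Mxd4 (39.1) and Mxd1 (23.7). In shBruce Starv Max had the highest mean level at 654 per kb, ahead of Myc at 502, Mnt at 372 and Mxi1 at 356, but Max overlapped Myc, Myc overlapped Mnt and Mnt overlapped Mxi1. Mxd3 followed without overlap at 281 per kb, Mga (85.7) overlapped Mxd4 (65.0), and Mxd1 was lowest of the 8 at 44.3.

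Myc made up 66.3% ± 0.909 (SD, n = 3) of the transcripts of MAX's partners per kb in shRenilla FM and 38.4% ± 0.898 in shRenilla Starv. In shBruce MEFs the share was 71.4%, 70.0% and 54.1% in the FM libraries and 19.1%, 28.5% and 37.6% in the Starv libraries. Media did not overlap in either line. The ratio of Myc to the sum of Mnt and the MXD genes per kb went from 2.28 to 0.699 in shRenilla MEFs and from 2.23 to 0.443 in shBruce MEFs. The summed level of all partners differed little between media relative to its spread in shBruce MEFs, 1664 ± 222 and 1707 ± 338 per kb, and was 1910 ± 54.6 in FM and 1993 ± 29.8 in Starv in shRenilla MEFs (SD, n = 3). Max per partner transcript was 0.389 in shRenilla FM, 0.279 in shRenilla Starv, 0.480 in shBruce FM and 0.390 in shBruce Starv. These shares are of mRNA, not of protein, and depend on the transcript chosen for each gene.

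**Figure D3:**
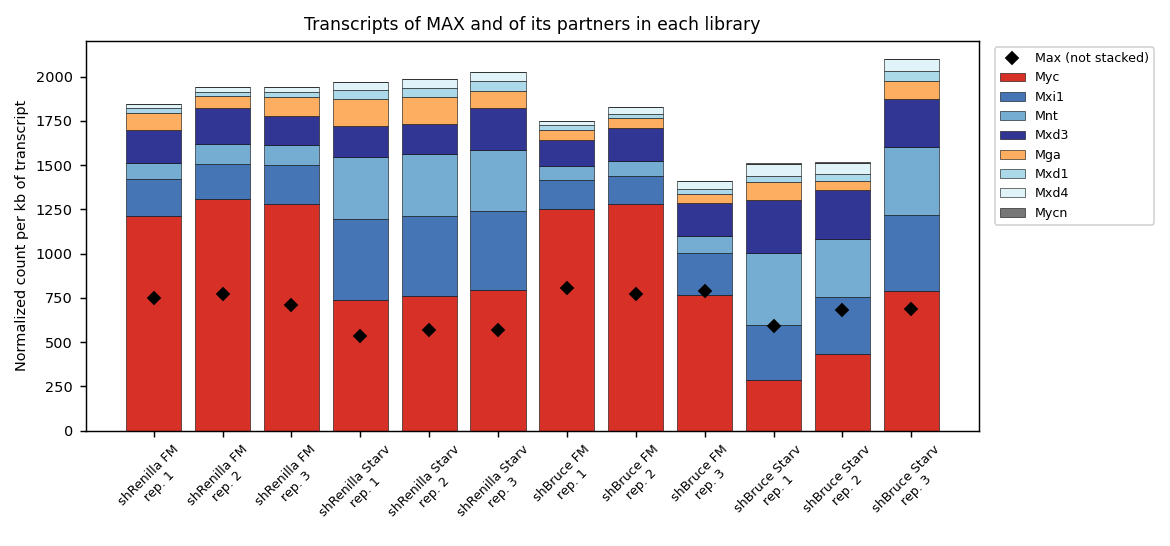
Normalized counts per kb of principal transcript (vertical axis) of MAX's partners in each library, stacked, with Max shown as diamonds and not stacked. Myc fills 65.7% to 67.3% of the bar in the shRenilla FM libraries and 37.5% to 39.3% in the shRenilla Starv libraries, and 19.1% in shBruce Starv replicate 1.

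Between the lines in FM, 0 of the 8 genes and 0% of all genes passed in edgeR's joint fit, with 1750 of the 12154 genes at an unadjusted p under 0.05. Of the 8 genes, 2 had an unadjusted p under 0.05, Mga and Mxd4, and DESeq2 and limma-voom also called 0. Fitted on the 6 FM libraries alone, Mga passed (log2 fold change -0.70, adjusted p = 0.0478), and the share of all genes that passed in that fit is not given here. In the joint fit Mga was 1.63-fold lower in shBruce MEFs (log2 fold change -0.70, 95% confidence interval -1.26 to -0.15, adjusted p = 0.303), and all 3 shBruce libraries were below the 3 shRenilla libraries. With the length and GC trends removed, it was at -0.30 (adjusted p = 0.488). Mxd4 had a log2 fold change of 0.51 (95% confidence interval 0.10 to 0.93, adjusted p = 0.303), with overlapping libraries. For Myc it was -0.21 (-0.81 to 0.40), for Max 0.08 (-0.14 to 0.31), for Mnt -0.23 (-0.50 to 0.05), for Mxi1 -0.18 (-0.55 to 0.19), for Mxd1 -0.25 (-0.62 to 0.12) and for Mxd3 -0.09 (-0.43 to 0.26), the ranges being 95% confidence intervals.

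In Starv 1 of the 8 genes, Mxd3, passed between the lines, where 23.9% of all genes did (12.8% higher and 11.2% lower in shBruce MEFs). Mxd3 was 1.44-fold higher in shBruce MEFs (log2 fold change 0.53, 95% confidence interval 0.19 to 0.87, adjusted p = 0.0335), and its libraries did not overlap. With the length and GC trends removed, its log2 fold change was 0.02 (adjusted p = 0.928). The call was also lost without shRenilla FM replicate 1 (adjusted p = 0.0525), shRenilla Starv replicate 1 (0.141) or replicate 2 (0.150), or shBruce Starv replicate 1 (0.0840) or replicate 2 (0.0717).

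Starved Myc was 1.52-fold lower in shBruce MEFs (log2 fold change -0.60, 95% confidence interval -1.21 to 0.01, adjusted p = 0.127), with shBruce Starv replicate 3 inside the range of the shRenilla libraries. For Mga the log2 fold change was -0.64 (adjusted p = 0.0811), which became -0.05 with the length and GC trends removed. Max was at 0.23 (adjusted p = 0.106), Mxd4 at 0.39 (0.128) and Mxi1 at -0.34 (0.147), each with libraries that did not overlap, and Mxd1 was at -0.21 and Mnt at 0.10. The share of all genes whose libraries did not overlap was not computed, and 5009 of the 12154 genes had an unadjusted p under 0.05 here. Several of these values depended on 1 library. Without shBruce Starv replicate 3, 5 of the 8 genes passed, Mxd3 and with it Myc at -1.08 (adjusted p = 0.00164), Mxd1 at -0.42 (0.0266), Mxi1 at -0.51 (0.0215) and Mga at -0.82 (0.0273). The share of all genes that passed in that fit is not given here, so the 5 cannot be set against a background. Without shBruce Starv replicate 1, Myc was at -0.34 (adjusted p = 0.332) and Mxd1 at -0.12 (0.634), and without shBruce Starv replicate 2, Mga was at -0.37 (0.234). Mga also passed without shRenilla Starv replicate 3 (-0.83, adjusted p = 0.0400) and with no filter (adjusted p = 0.0430), and Max with DESeq2 (adjusted p = 0.0331).

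**Figure D4:**
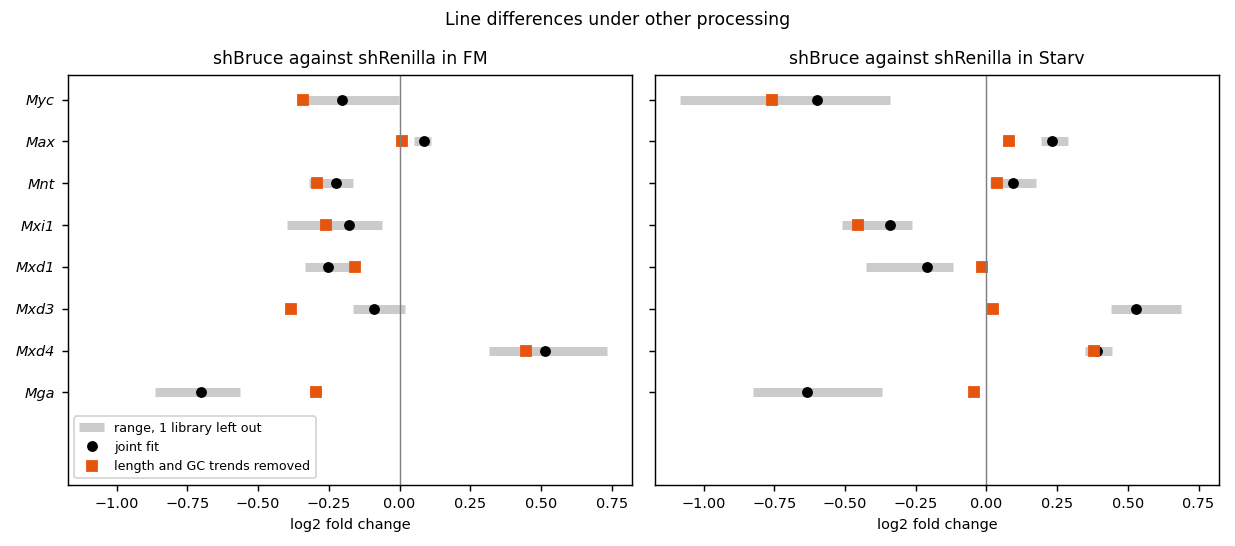
Log2 fold changes of shBruce against shRenilla MEFs (horizontal axis) in FM (left) and in Starv (right). Black points give the joint fit, orange squares the fit with length and GC trends removed, and grey bars the range over the 12 fits that left out 1 library. In Starv, Mxd3 moves from 0.53 to 0.02 and Mga from -0.64 to -0.05 when the trends are removed, while Mxd4 stays at 0.39 and 0.38.

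The wider network was described from lists written with general knowledge. Of the 4 further genes of the MAX and MLX network, 3 were tested, and their median log2 fold change on starvation was -1.12 in shRenilla and -1.06 in shBruce MEFs, against -0.01 and 0.02 over all genes. Mlx, the MAX-like partner of the glucose-sensing MondoA and ChREBP, fell from 974, 929 and 955 normalized counts to 411, 373 and 476 in shRenilla MEFs (log2 fold change -1.18, adjusted p = 6.6e-05). In shBruce MEFs it fell from 1018, 1042 and 857 to 412, 447 and 502 (log2 fold change -1.10, adjusted p = 0.000106). Mycl, the third MYC paralog, fell at a far lower level, from a mean normalized count of 54.6 to 25.1 in shRenilla MEFs (log2 fold change -1.12, adjusted p = 0.0135) and from 43.0 to 21.3 in shBruce MEFs (-1.06, adjusted p = 0.0242).

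Most genes for the machinery around these factors did not pass, and neither did most of all genes tested. Over all genes, 9.69% rose and 7.27% fell in shRenilla MEFs, and 12.4% rose and 10.6% fell in shBruce MEFs. Of 23 MYC cofactors and turnover factors, 0 rose and 1 fell in shRenilla MEFs, Zbtb17, which encodes the MYC partner MIZ1 (log2 fold change -0.56, adjusted p = 0.0110). In shBruce MEFs 0 rose and 2 fell, Wdr5 (-0.53, adjusted p = 0.00725), an adaptor that helps MYC bind chromatin, and Skp2 (-0.50, adjusted p = 0.00978), a ubiquitin ligase subunit that acts on MYC. Of 20 SIN3 corepressor genes, 0 passed in shRenilla MEFs by edgeR and by limma-voom and 1 by DESeq2, with 5 at an unadjusted p under 0.05 in edgeR. In shBruce MEFs 3 rose and 0 fell, a share near the 12.4% of all genes that rose, led by the histone demethylase gene Kdm5a (1.05, adjusted p = 0.0113) and by Arid4a (0.99, adjusted p = 0.00572). Both varied widely in shBruce Starv, from 1817 to 4386 normalized counts for Kdm5a and from 773 to 1528 for Arid4a. Their coefficients of variation there were 49.4% and 42.4%. The median log2 fold changes of the cofactors were -0.10 and -0.14, and those of the SIN3 genes -0.10 and 0.03.

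Of the 10 genes of MGA's polycomb complex PRC1.6, 2 rose and 1 fell in shRenilla MEFs (over all genes, 9.69% and 7.27%) and 2 rose and 3 fell in shBruce MEFs (12.4% and 10.6%). Tfdp2, which encodes a partner of E2F factors, rose by 1.15 and 0.84 on the log2 scale (adjusted p = 0.00202 and 0.0111), and Ring1, a ubiquitin ligase of the complex, by 0.51 and 0.59 (adjusted p = 0.0301 and 0.0112). Yaf2 fell in shRenilla MEFs (log2 fold change -0.59, adjusted p = 0.00734), and Tfdp1 (-0.73, adjusted p = 0.0101) and E2f6 (-0.58, adjusted p = 0.0353) in shBruce MEFs. The median log2 fold changes of the list were -0.09 and -0.17.

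Of 40 genes known to be activated by MYC, 12 fell and 0 rose in shRenilla MEFs, where 7.27% of all genes fell and 9.69% rose, and 11 fell and 0 rose in shBruce MEFs, where 10.6% fell and 12.4% rose. The median log2 fold changes were -0.33 and -0.22. Ppan, a ribosome biogenesis factor, fell by 1.66 on the log2 scale in shRenilla MEFs (adjusted p = 0.000105) and by 1.32 in shBruce MEFs (adjusted p = 0.000474). Rrs1, which acts in the maturation of the large ribosomal subunit, fell by 1.07 in shRenilla MEFs (adjusted p = 0.000155), and Polr1b, a subunit of RNA polymerase I, fell by 1.08 in shBruce MEFs (adjusted p = 0.00453). These counts moved with single libraries. In shRenilla MEFs, 4 to 6 genes passed when any 1 shRenilla library was left out, 19 without shBruce Starv replicate 1, and 30 when the 6 shRenilla libraries were fitted alone. In shBruce MEFs, 5 passed without shBruce FM replicate 1, 7 without shBruce FM replicate 2, shRenilla FM replicate 3, or shRenilla Starv replicate 1 or 2, and 3 when the 6 shBruce libraries were fitted alone. The shares of all genes above belong to the joint fit. Those of the other fits are not given here, so these counts, the 30 included, have no background to be read against.

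Of 10 genes known to be repressed by MYC, 3 rose and 1 fell in shRenilla MEFs (over all genes, 9.69% and 7.27%), and 3 rose and 2 fell in shBruce MEFs (12.4% and 10.6%), with median log2 fold changes of 0.15 and 0.32. Gadd45a, a growth arrest gene that many stresses induce, rose by 2.60 and 2.87 on the log2 scale (adjusted p = 1.03e-07 and 6.83e-08). The next largest rise was that of Ndrg1, a stress-inducible gene, in shRenilla MEFs (log2 fold change 1.43, adjusted p = 1.8e-06), and Cdkn1b, the gene of a cell cycle inhibitor, in shBruce MEFs (1.29, adjusted p = 0.000718). Thbs1, a secreted inhibitor of blood vessel growth that serum also induces, fell by 1.87 and 2.42 (adjusted p = 1.35e-05 and 1.52e-06), and Gas1, a growth arrest gene, fell in shBruce MEFs (log2 fold change -0.83, adjusted p = 0.0440).

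**Figure D5:**
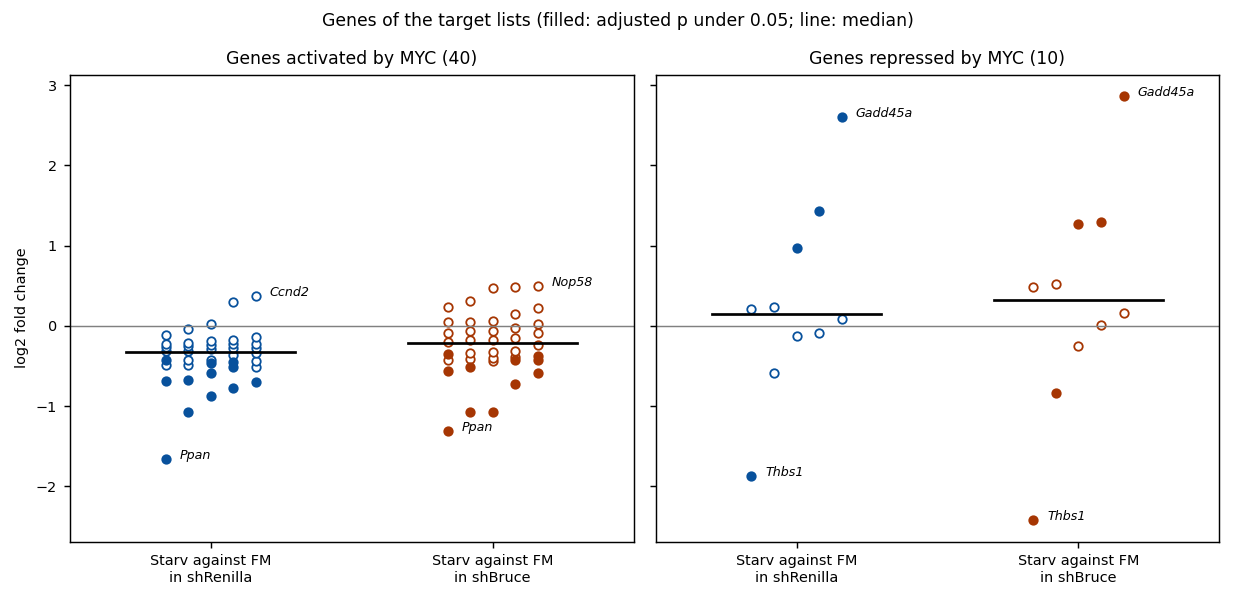
Log2 fold changes on starvation (vertical axis) in each line of the 40 listed genes activated by MYC (left) and the 10 repressed by MYC (right). Each point is a gene, filled where the adjusted p was under 0.05, spread sideways for legibility, and lines give the medians. The filled points of the activated genes are all below 0, with medians of -0.33 and -0.22, and those of the repressed genes lie on both sides of 0.

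Between the starved lines, 7 of the 40 MYC-activated genes were higher and 2 lower in shBruce MEFs, where 12.8% of all genes were higher and 11.2% lower, with a median log2 fold change of 0.22 against -0.00 over all genes. The genes with the largest change in each direction were Dkc1 (0.86, adjusted p = 0.0430), a component of ribonucleoproteins that modify ribosomal RNA, and Utp20 (-0.62, adjusted p = 0.0436), a factor of small subunit processing. The count was 1 with the length and GC trends removed, 20 without shBruce Starv replicate 3, and 0 without shRenilla Starv replicate 1 or 2 or without shBruce Starv replicate 1 or 2. Shares of all genes in these other fits are not given here. Of the 23 MYC cofactors 1 was higher and 3 were lower, with a median log2 fold change of 0.07. The decreases were led by Huwe1 (-0.85, adjusted p = 0.0332), a very large ubiquitin ligase gene. Of the SIN3 genes 3 were higher, with Brms1 first (0.77, adjusted p = 0.0232), and of the PRC1.6 genes 1 was higher, Ring1 (0.58, adjusted p = 0.0239), and 2 lower, led by Cbx3 (-0.63, adjusted p = 0.0407). Normalized counts in shBruce Starv spread from 4860 to 12999.5 for Dkc1 and from 671 to 1276 for Brms1. Of the MYC-repressed genes, only Thbs1 passed, lower in shBruce MEFs (-0.72, adjusted p = 0.0225). In FM and for the difference of starvation effects, 0 of the 106 genes tested in these 6 lists passed in edgeR's joint fit, with DESeq2 or with limma-voom. At an unadjusted p under 0.05 in edgeR there were 9 in FM and 6 for the difference. The 3 further network genes had 0 calls between the starved lines, 1 with DESeq2 and 0 with limma-voom, with 1 at an unadjusted p under 0.05.

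Over the 12 libraries, which share media and lines, log2 normalized counts of Mxi1, Mxd1 and Mnt followed each other closely, with Pearson r of 0.96 for Mxi1 and Mxd1, 0.92 for Mxi1 and Mnt, and 0.91 for Mxd1 and Mnt. Myc ran opposite to Mxd4 (r = -0.83), Mnt (-0.75) and Mxd3 (-0.75), and less so to Mxi1 (-0.55) and Mxd1 (-0.47). Max ran opposite to Mxi1 (-0.86), Mnt (-0.85) and Mxd1 (-0.84). Mga had r of 0.71 with Mxd1, 0.67 with Mxi1 and -0.77 with Max.

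Among all other genes tested, the nearest to Myc in these 12 libraries was Nxf1 (r = 0.99), an mRNA export receptor gene, then Rin1 and Cers2 (both 0.98). Nearest to Max were Irf2bp2 (0.96), Dancr and Pcbp1 (both 0.95). Mnt was nearest to Otub2, Slc38a7 and Wbscr27 (all 0.99), Mxi1 to Rnf103, Fbxl20 and Mgea5 (all 0.99), and Mxd1 to Ppm1d (0.99), a p53-induced phosphatase gene, Ing3 and Dtl (both 0.98). Mxd4 was nearest to Nek8 (0.98), Fbxl8 and Sars (both 0.96). Mxd3 had the loosest neighbours, Rpusd3, 1700008J07Rik (both 0.95) and 2310009A05Rik (0.93). Mga was nearest to Ep300 (0.99), a histone acetyltransferase gene, and to Whsc1l1 and Pou2f1 (both 0.98).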

How the data were processed

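RNA-Seq counts of 12 MEF libraries were analysed. The authors isolated total RNA with TRIzol, removed DNA, enriched poly(A) RNA, sequenced single-end 50-base reads and removed reads aligning to rRNA. Per the submitters' processing notes, STAR 2.4.0d and HTSeq 0.5.4p3 were used with mm10. The deposited table holds raw counts per gene symbol without normalization, and the annotation and strand setting of the counting are not given in the sources used here.

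The test was edgeR's (version 4.0.16, R 4.3.3; TMM normalization, filterByExpr, a joint fit of the 4 conditions over all 12 libraries with 8 residual degrees of freedom, two-sided quasi-likelihood test), with Benjamini-Hochberg adjustment over the 12154 genes tested, a level of 0.05 and 95% confidence intervals. The study's methods name TMM with limma-voom, which was run as an alternative. Exact permutation tests on 3 libraries against 3 cannot go below 0.1. Total counts were 7717265 to 18510540, and replicates differed beyond counting error (chi-square per degree of freedom from 2.23 to 98.9), so errors are SDs or standard errors of the fit.

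GENCODE M21 (GRCm38) gave gene positions, principal transcript lengths and GC content (22724 symbols matched directly, 915 through older symbols). Trends against length and GC content were removed with splines of 4 degrees of freedom over 12052 of the genes tested (99.2%). Promoters came from RefSeq (GRCm38.p6), of which 250 bases before the start were searched. Correlations used log2 normalized counts with a pseudocount of 0.5.

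The 9 genes, the gene lists (from general knowledge), the tests and the alternatives were chosen with earlier results of these data known. Named are the 9 genes, Birc6, from each list up to 2 rising and 2 falling genes with the largest change in each starvation comparison and 1 of each between the lines, and for each gene the 3 with the highest correlation. A gene that this rule names is not reported here. Gm42846, Gm10197 and Prelid1 were named because they overlap. The alternatives were DESeq2 size factors and upper-quartile normalization in edgeR, DESeq2 1.42.0, limma-voom (limma 3.58.1), no filter, at least 10 counts in every library, a fit of the compared conditions alone, a replicate block, length and GC trends removed with or without it, each library left out, a change of at least 2-fold, and raw counts for the share of Myc. The fits were tested on simulated counts. Figures were drawn with matplotlib 3.10.9 in Python 3.11.15.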

Additional observations from a re-analysis of the deposited data

How the results depend on the processing

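Of the fold changes of the 8 genes over all comparisons and alternatives, 821 kept their direction and their side of the threshold, 17 lost the call, 22 gained it and 12 changed sign, none of the last with a call. In starved shBruce against shRenilla MEFs, where 1 of the 8 passed, 2 passed with DESeq2 and with no filter, and 0 with only the groups compared, with the replicate block, with length and GC trends removed without and with the block, and with a change of at least 2-fold. In FM 1 passed with only the groups compared. With a change of at least 2-fold, 2 passed on starvation in each line. Leaving out 1 library gave 4 to 6 genes on starvation in shRenilla MEFs, 5 to 7 in shBruce MEFs, 0 to 5 between the starved lines, and 0 in FM and for the interaction. The shares of all genes that passed under these alternatives are not given here. Whether a count moved with the 8 genes or with the whole test thus cannot be told from it. By raw counts instead of levels per kb, Myc made up 52.4% of the partners in shRenilla FM (66.3% per kb), 25.7% in shRenilla Starv (38.4%) and 54.3% in shBruce FM (65.2%), since long transcripts such as that of Mga then weigh more.

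Where signs changed, the interaction of Mga was -0.0025 with limma-voom and ranged from -0.12 to 0.33 with 1 library left out. The same ranges were -0.17 to 0.13 for the interaction of Mxd1, -0.34 to 0.074 for Mxd4 and -0.33 to 0.057 for Mxi1, -0.080 to 0.17 for Mxd3 on starvation in shRenilla MEFs, and -0.16 to 0.019 for Mxd3 between the lines in FM.

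Same-numbered libraries did not deviate together (correlations from -0.456 to 0.347, 5 of 18 over 0.1, 6 of 18 highest with their own number), so the numbers were not taken as pairs. With the replicate block, Mxd3 between the starved lines had a log2 fold change of 0.53 (adjusted p = 0.0531), and no other call of the 8 genes changed. Of the counts of listed genes, 118 of the alternatives moved by more than 1.5 times and 536 did not. For MYC-activated genes, 12 called on starvation in shRenilla MEFs became 4 to 30, 11 in shBruce MEFs 3 to 15, and 9 between the starved lines 0 to 20. These ranges too stand without the share of all genes in each fit. The interaction has no fit on only the groups compared. Mycn had at most 4 counts in a library, in shBruce Starv replicate 1, which had the lowest total counts.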
